A study of Mus musculus with 7 samples.

Results

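The Siglec receptors are described here across the immune cells of a mouse brain tumour. The 7 members are Siglece, Siglec1, Siglecf, Siglecg, Siglech, Cd22 and Cd33, taken by name from the 55491 gene rows of a single-cell UMI matrix (a UMI marks 1 captured RNA molecule). Their levels are given as UMIs of the gene per 1000000 UMIs (CPM) of the cells of 1 type in 1 library. Together they carried 30571.5 UMIs: Siglech 10118, Cd33 7811, Siglec1 5031, Siglece 4026, Siglecg 2435.5, Cd22 908 and Siglecf 242.

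Mice received CT-2A, a mouse glioma line, into the brain at 8 to 12 weeks of age. Live cells positive for CD45, CD11b or both were sorted from the tumour-bearing hemisphere after freezing and thawing, and 1 library was made per mouse with droplet 5′ single-cell chemistry. The 4 KO mice carried the Sall1CreERT2 driver (B6;129-Sall1 background) with floxed Siglece alleles (B6.129P2-Siglece). The 3 WT mice carried the floxed alleles without the driver. Mice of both genotypes were given 2.5 mg tamoxifen per injection, daily from day 7 to day 21 after engraftment and every other day after that. The driver is inserted at Sall1, a transcription factor gene that within the sorted populations marks microglia, so deletion depends on tamoxifen reaching cells that use Sall1. Which exons the loxP sites flank is not given in the sources used here, so a 5′ tag of Siglece may lie outside the deleted part.

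Siglecs are cell surface lectins that bind sialic acid, the sugar that caps many glycans of host cells and of tumour cells. Most CD33-related members and CD22 carry inhibitory tyrosine motifs in the cytoplasmic tail that recruit the phosphatases encoded by Ptpn6 and Ptpn11, whereas Siglec-H lacks such a motif and signals through the adapter encoded by Tyrobp. In the brain, microglia and infiltrating macrophages use these receptors to read the sialic acid on neighbouring cells.

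The 7 libraries held 1410 to 5856 cells and 16037214 to 38966377 UMIs, with a median of 4479 to 9554 UMIs per cell. Of 28178 barcodes, 460 occurred in at least 2 libraries and covered 926 of the 28644 cells (3.23%). The 23 cell type names are the authors' own. All 8 microglia markers and all 6 plasmacytoid dendritic cell (pDC) markers were highest in the class so named, as were all 5 B cell and all 4 NK cell markers. For monocyte-derived cells (monocytes and macrophages) this held for 4 of 8, for dendritic cells derived from monocytes (mo-DCs) for 2 of 4. By cell type, all 4 markers of type 1 conventional dendritic cells (cDC1) were highest in the type so named, but 0 of 4 of type 2 (cDC2) were: in the cells named cDC2, Sirpa stood at 20.6 CPM, Itgax at 15.6, Clec10a at 2.91 and Cd209a at 0.097, while Ccr7 and Fscn1, genes of migrating dendritic cells, were highest there. The name cDC2 is kept here only as the authors' label. The low-quality or activated microglia had a median of 2222 UMIs per cell and 4.77% mitochondrial UMIs, against 6226 and 2.06% in the other microglia. No class was named for eosinophils, the best known carriers of Siglec-F; of their markers, Epx was at 0 in every class and Prg2 reached 55.4 CPM in B cells.

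All members but Siglec1 lie on chromosome 7 (GENCODE M21, GRCm38), and 4 of them sit close together: Siglecf (chr7:43351341-43359531, plus strand), Siglecg (chr7:43408204-43418358, plus strand), Cd33 (chr7:43524216-43544428, minus strand) and Siglece (chr7:43651070-43660161, minus strand). The gap between Siglecf and Siglecg is 48672 bases, that between Siglecg and Cd33 105857 bases, and that between Cd33 and Siglece 106641 bases. Cd22 (chr7:30865402-30880342, minus strand) lies 18833 bases from Mag, the family member of myelinating glia. Siglech (chr7:55768178-55778925, plus strand) lies 15228 bases from Tubgcp5, and Siglec1 is on chromosome 2 (chr2:131069220-131086765, minus strand).

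The 250 bases before a RefSeq start of Siglece, Cd33 and Siglech are shown because these 3 genes carry the myeloid and pDC patterns described next. They were read from RefSeq on GRCm38.p6, 5′ to 3′ on the strand of the gene: chr7:43660162-43660411 (minus strand) for Siglece, chr7:43533172-43533421 (minus strand) for Cd33 and chr7:55767934-55768183 (plus strand) for Siglech. The RefSeq start of Cd33 lies inside the gene span given by GENCODE, so this window is not upstream of that span. Capitals mark GAGGAA or its reverse complement TTCCTC, the core letters bound by the myeloid factor encoded by Spi1.
Siglece: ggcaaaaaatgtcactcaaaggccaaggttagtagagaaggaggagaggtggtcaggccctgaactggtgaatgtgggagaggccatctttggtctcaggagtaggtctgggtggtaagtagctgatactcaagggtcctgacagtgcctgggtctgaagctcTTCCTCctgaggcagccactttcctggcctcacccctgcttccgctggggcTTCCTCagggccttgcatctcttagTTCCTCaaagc
Cd33: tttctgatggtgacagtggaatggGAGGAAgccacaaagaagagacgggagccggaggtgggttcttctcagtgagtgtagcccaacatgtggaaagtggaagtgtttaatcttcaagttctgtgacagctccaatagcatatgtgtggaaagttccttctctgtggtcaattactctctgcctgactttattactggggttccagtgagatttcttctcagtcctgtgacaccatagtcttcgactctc
Siglech: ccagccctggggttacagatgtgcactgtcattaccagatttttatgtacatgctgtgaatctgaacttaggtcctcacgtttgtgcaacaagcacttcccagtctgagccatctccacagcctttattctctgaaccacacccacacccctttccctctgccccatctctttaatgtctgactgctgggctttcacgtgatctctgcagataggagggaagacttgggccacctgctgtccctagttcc
The Siglece window held 3 matches, at -87, -36 and -11 bases from the start, the Cd33 window 1 match at -226 and the Siglech window 0. Of all 32851 windows of this length, 23.3% held at least 1 match on either strand. RefSeq windows were found for 6 of the 7 members (all but Siglec1), and 4 of their 7 windows held a match. A match describes letters only.

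**Figure D1:**
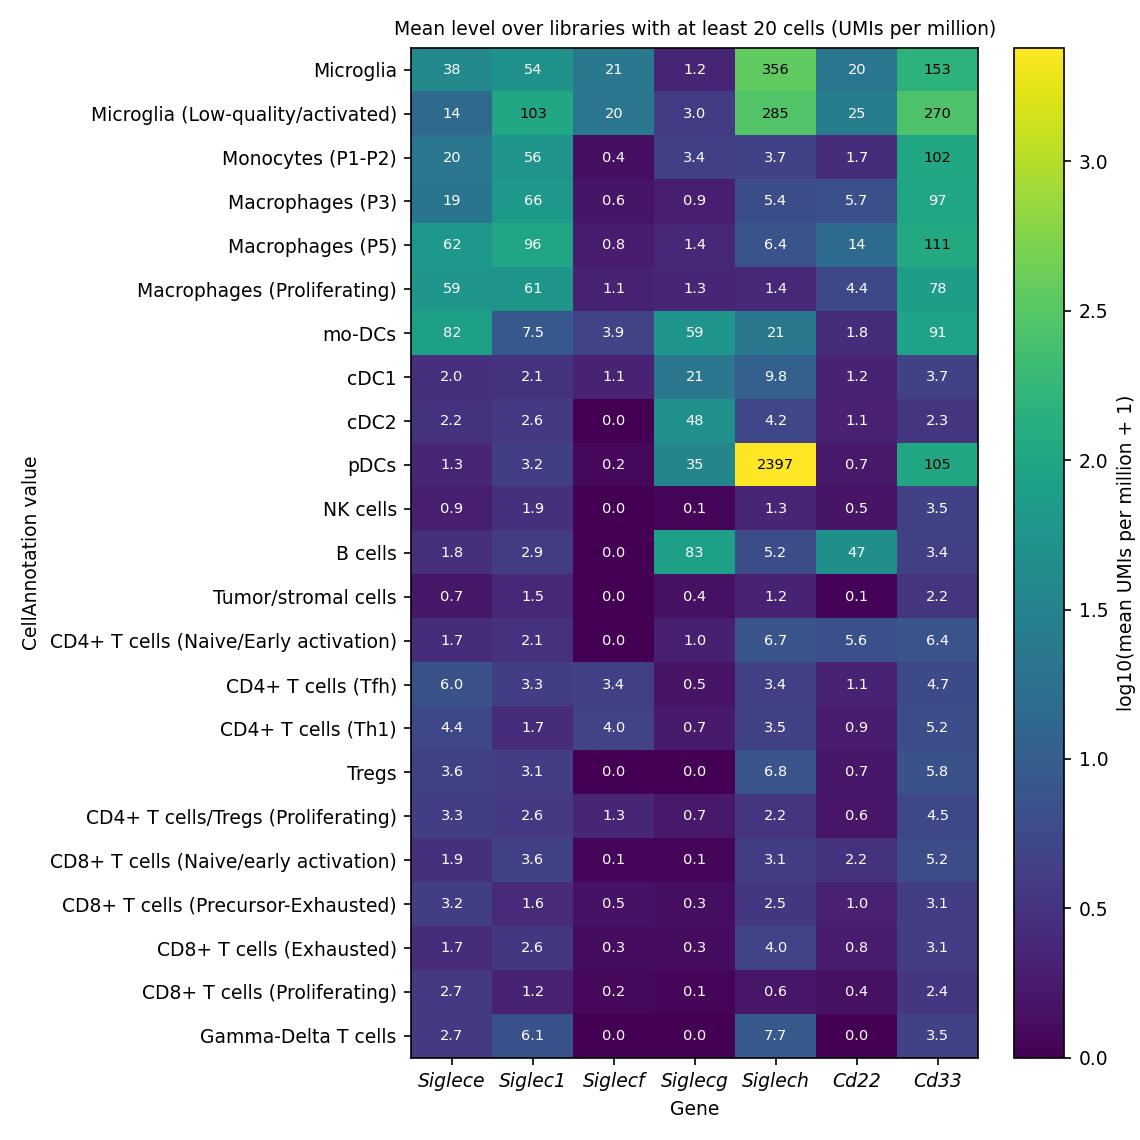
Mean CPM of each Siglec gene (columns) in each of the 23 cell types (rows), over libraries with at least 20 cells of the type, on a log10 colour scale with the value in each cell. Siglech in pDCs is the brightest cell, at 2397 CPM, and the T cell rows stay below 8 CPM in every column.

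Siglec-E, the inhibitory receptor targeted in these mice, had its highest mean levels in cells of monocyte origin. It stood highest in mo-DCs at 81.7 ± 13.2 CPM (SD, n = 7), followed by the macrophages that the authors name P5 at 61.7 ± 11.0 (n = 7) and proliferating macrophages at 59.5 ± 26.6 (n = 6). Microglia of good quality followed at 38.3 ± 20.6 (n = 3, all WT), monocytes at 20.5 ± 7.01 and P3 macrophages at 19.3 ± 3.72 (both n = 7). The ranges of neighbouring types in this order overlapped. P5 macrophages alone supplied 40.3% of all Siglece UMIs, mo-DCs 32.0% and good-quality microglia 1.02%.

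The step between the macrophage types was seen in every mouse. Siglece was higher in P5 than in P3 macrophages in 7 of 7 mice, with a median ratio of 3.25 (2.33 to 4.63), and higher in P5 macrophages than in monocytes in 7 of 7, with a median ratio of 3.18. It was also higher in mo-DCs than in P5 macrophages in 7 of 7 mice, but only by a median ratio of 1.21 (1.01 to 2.05). These ratios carry no test, since the cell types were named from the same cells. With cells thinned to 1500 UMIs (shallower cells left out), 11.2% of mo-DCs and 8.63% of P5 macrophages had a Siglece UMI, against 0.195% to 1.02% of the T cell types, taken as a background level (free RNA, doublets and low expression were not separated there). Without thinning the values were 45.1% and 29.5%, and at most 3.14% in T cells.

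Sialoadhesin, encoded by Siglec1, is a macrophage receptor that binds sialylated cells and particles and lacks an inhibitory motif. It followed macrophages and microglia and was low in every dendritic cell type. The means were 103 ± 67.8 CPM in low-quality or activated microglia (n = 5, 2 KO and 3 WT), 96.4 ± 29.2 in P5 macrophages (n = 7), 66.1 in P3 macrophages, 60.8 in proliferating macrophages, 55.8 in monocytes and 54.1 in the other microglia (n = 3, all WT). The range of the last did not overlap that of the next type, mo-DCs, at 7.52 CPM. In WT mice alone the order at the top was reversed, with 68.7 CPM in low-quality or activated microglia and 102 in P5 macrophages. The 2 KO libraries of the former averaged 153 CPM. P5 macrophages exceeded mo-DCs in 7 of 7 mice, with a median ratio of 12.4 (6.01 to 27.5), whereas Siglece ran the other way between the same cells in 7 of 7.

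Cd33, which in humans is a risk gene of Alzheimer's disease and an inhibitory receptor of myeloid cells, was found in microglia, in all monocyte-derived types and in pDCs, and was low in conventional dendritic cells. It reached 270 ± 117 CPM in low-quality or activated microglia (n = 5, 2 KO and 3 WT) and 153 ± 50.9 in the other microglia (n = 3, all WT). P5 macrophages (111 CPM), pDCs (105), monocytes (102), P3 macrophages (97.3), mo-DCs (90.8) and proliferating macrophages (77.8) overlapped one another. Below these was a gap to 6.40 CPM in naive CD4+ T cells. In pDCs Cd33 was above cDC1 in 7 of 7 mice, with a median ratio of 26.7 (18.5 to 94.4), and 13.3% of pDCs had a Cd33 UMI at 1500 UMIs per cell against 0.521% of cDC1 (37.3% and 3.97% without thinning).

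Siglec-H, the surface marker of mouse pDCs and of microglia, was led by pDCs in every library. Siglech ranged from 2157 to 3132 CPM in pDCs (mean 2397 ± 346, n = 7), was 356 ± 108 in good-quality microglia (n = 3) and 285 ± 68.7 in the low-quality or activated ones (n = 5), and was 21.3 in mo-DCs and 9.81 in cDC1. The pDC range did not overlap that of microglia; both microglia types overlapped each other and lay apart from mo-DCs. pDCs exceeded good-quality microglia in 3 of 3 mice with a median ratio of 5.93. At 1500 UMIs per cell, 94.6% of pDCs and 41.4% of good-quality microglia had a Siglech UMI, and at most 1.40% of any T cell type; without thinning these were 99.6%, 74.9% and at most 2.74%. The neighbouring gene Tubgcp5 had the same leading types, at 188 CPM in pDCs, 117 in low-quality or activated microglia and 48.9 in the other microglia. How far reads of the 2 genes could be told apart was not tested.

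Siglec-G, an inhibitory receptor of B cells that recognises CD24, was shared between B cells and dendritic cells. Siglecg averaged 82.6 ± 52.2 CPM in B cells (n = 6), 59.2 ± 13.6 in mo-DCs, 48.3 ± 18.0 in cDC2, 34.8 ± 14.2 in pDCs and 20.6 ± 4.66 in cDC1 (n = 7 each). The cDC1 range did not overlap that of monocytes, at 3.42 CPM. Siglecg was higher in cDC2 than in cDC1 in 7 of 7 mice (median ratio 2.29), and higher in mo-DCs than in P5 macrophages in 7 of 7 (median ratio 39.7). In mo-DCs Siglecg was found beside Siglece and Cd33: Siglece had a UMI in 11.2%, Cd33 in 11.7% and Siglecg in 8.97% of them at 1500 UMIs per cell, and in 45.1%, 45.6% and 37.7% without thinning.

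Cd22, the B cell receptor that damps antigen receptor signals, was highest in B cells at 46.9 ± 37.8 CPM (n = 6). It was also found in low-quality or activated microglia (25.5), in the other microglia (19.9, all WT) and in P5 macrophages (14.1), and it was low in monocytes (1.66). In WT mice alone low-quality or activated microglia averaged 12.2 CPM, below the other microglia. P5 macrophages exceeded monocytes in 7 of 7 mice (median ratio 7.12 over the 6 mice with a Cd22 UMI in monocytes). They exceeded P3 macrophages in 7 of 7 (median ratio 2.09). Mag, its neighbour on the chromosome, was also found in the myeloid types, at 20.5 CPM in good-quality microglia, 14.9 in the low-quality or activated ones, 12.2 in P5 and 6.84 in P3 macrophages. Whether reads of Cd22 and Mag were separated in the counting was not tested.

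The B cell libraries differed widely for both B cell members. Cd22 stood at 88.2, 19.1 and 24.2 CPM in WT replicates 1 to 3 and at 99.9, 39.0 and 11.3 in KO replicates 2 to 4, and Siglecg at 144.8, 27.2, 80.7 and at 124.9, 102.6, 15.6. The lowest values of both genes came from WT replicate 2 and KO replicate 4. Those libraries also had the most transcripts of Jchain, a plasma cell gene, among libraries with at least 20 B cells (13188 and 12420 CPM, against 1864 to 5862), and the lowest Ms4a1 (74.1 and 61.6). The plasma cell genes were chosen after the values were seen, and their part in the spread was not tested.

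**Figure D2:**
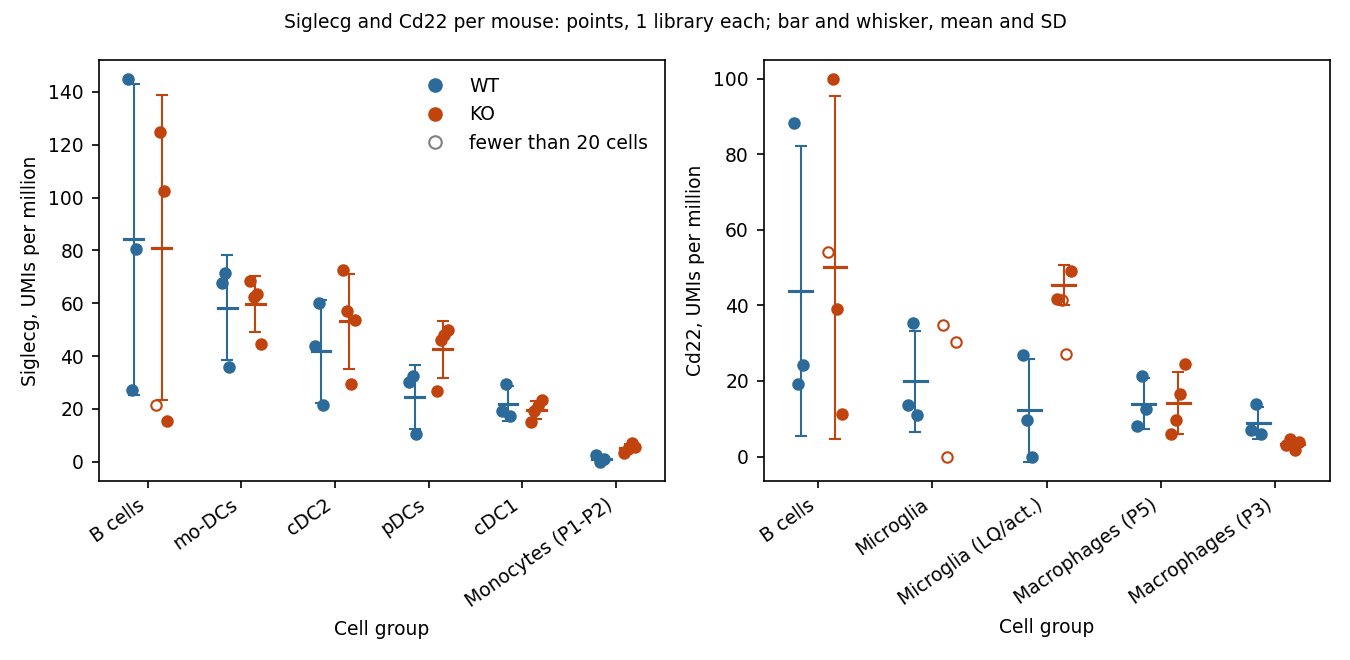
Siglecg (left) and Cd22 (right) in CPM per mouse for the cell types named on the x axis; each point is 1 library, open where it holds fewer than 20 cells, and the bar and whisker are the mean and SD of the filled points. B cells spread from 15.6 to 144.8 CPM for Siglecg, while the cDC1 points stay between 15.03 and 29.4.

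Siglec-F, known as the receptor of eosinophils, had the fewest UMIs of the members. Siglecf reached 21.4 ± 6.36 CPM in good-quality microglia (n = 3) and 20.1 ± 5.54 in the low-quality or activated ones (n = 5), with ranges apart from the next type. Over all libraries these 2 types held only 22 and 14 Siglecf UMIs, in 163 and 251 cells. Their SDs and ranges are therefore coarse. The next types were Th1 cells at 4.00 CPM, mo-DCs at 3.87 and Tfh cells at 3.40, with overlapping ranges. Of 1249 Th1 cells, 26 from 7 mice had a Siglecf UMI (2.08%), as had 12 of 1364 Tfh cells (0.880%) and 12 of 5076 precursor-exhausted CD8+ T cells (0.236%). No cell did among 1058 Tregs or 786 naive CD4+ T cells, where 3 cells would be 0.284% and 0.382%. These limits take cells as independent, although they came from 7 mice, so they set no bound over mice. The median depth was also lower in Tregs and naive CD4+ T cells (3376.5 and 2610 UMIs) than in Th1 cells (5088). At 1500 UMIs per cell the shares were 0.619% in Th1, 0.268% in Tfh and 0.0617% in precursor-exhausted CD8+ T cells, and 0 in 1037 Tregs and 688 naive CD4+ T cells. Th1 cells exceeded precursor-exhausted CD8+ T cells in 6 of 6 mice. The median ratio was 4.80 over the 5 mice with a Siglecf UMI in the latter. All 26 positive Th1 cells had a Cd3e UMI, as had 98.9% of the Siglecf-negative Th1 cells. None of the 26 had a Siglech UMI, against 2.13% of the negative cells. A microglia marker was found in 23.1% of the positive and 33.5% of the negative cells, at medians of 5824 and 5061 UMIs. The source of the Siglecf UMIs in these cells was not tested.

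Counting all 7 genes together in cells drawn down to 1500 UMIs, at least 1 Siglec gene was found in 95% of pDCs, 67.1% of low-quality or activated microglia, 56.4% of the other microglia, 34.2% of P5 macrophages, 32.0% of mo-DCs and 1.79% of NK cells. At least 2 were found in 23.8% of low-quality or activated microglia, 16.9% of pDCs and 15.3% of the other microglia. In P5 macrophages 46 of 3422 cells had both Siglece and Siglec1 UMIs, where 282 had Siglece and 459 had Siglec1. In mo-DCs 18 of 1560 had both Siglece and Siglecg, where 177 had Siglece and 145 had Siglecg. Whether these counts exceed those of independent detection was not tested.

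The genes with the most similar profile over the 23 cell types were found by Pearson correlation of log2(mean CPM + 1) among 7418 genes, as a description over cell types that share libraries and depth. For Siglece they were Ccr1 (r = 0.90), a chemokine receptor, then Ms4a6c, Fcgr4, Ms4a6d and Fcgr1, of which Fcgr4 and Fcgr1 encode IgG receptors. Siglec1 was followed by Slc11a1 (r = 0.98), C3ar1, C5ar1 and Csf1r, and Cd33 by Sirpa (r = 0.97), Lair1, Peli2, Cebpa and Trf, of which Sirpa and Lair1 are themselves inhibitory receptors. Siglecg stood nearest to H2-Eb2 (r = 0.91), Herpud1, Cbfa2t3, H2-DMb2 and Cd24a, the last encoding its own ligand. Siglech was nearest to Lefty1 (r = 0.92), Tubgcp5, Cox6a2, Mgat1 and Snap29, Cd22 to Bank1 (r = 0.83), Gm42551, Chst1, Bhlhe41 and Rapgef5, and Siglecf to Cd34 (r = 0.87), Mlxipl, Sall3, A830008E24Rik and Abhd12. Within the family the closest pairs were Siglec1 with Cd33 (r = 0.87), Siglece with Siglec1 (r = 0.82) and Siglece with Cd33 (r = 0.79).

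The genotypes were then compared gene by gene, with UMIs summed per mouse and fitted in edgeR over all genes of each cell type, at a Benjamini-Hochberg adjusted p under 0.05. Of 161 pairs of a Siglec gene and a cell type, 97 could be tested, and 0 passed (10 at an unadjusted p under 0.05, and 0 in DESeq2). Over all genes and cell types 0.0166% of tests passed, and 5.43% had an unadjusted p under 0.05. In the 9 cell classes 46 pairs were tested and 0 passed (7 unadjusted, 0 in DESeq2), against 0.0111% of all tests past the adjusted and 6.66% past the unadjusted threshold. The classes of B cells, NK cells, mo-DCs, pDCs and tumour or stromal cells hold 1 cell type each, so their pairs repeat those above. KO and WT libraries did not overlap in 13 of the 97 pairs, 9 with KO above and 4 with KO below, beside 5.63% and 4.84% of all tests. The same mice enter every cell type, so the pairs are not independent.

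The targeted gene had a lower mean level in KO than in WT microglia, a difference that did not pass the adjusted threshold. Joining both microglia types, Siglece had 2, 1, 0 and 0 UMIs in KO replicates 1 to 4 and 20, 19 and 7 in WT replicates 1 to 3, from 113 KO and 301 WT cells. This was 10.7 and 19.6 CPM in KO replicates 1 and 2, against 36.1, 45.9 and 18.6 in the WT mice, so that 1 KO library lay above 1 WT library. In KO replicate 2 that value is 1 UMI, and 3 UMIs correspond to 58.7 CPM there, above every WT value, and to 81.3 in KO replicate 3, so neither library can be placed against the WT mice at this depth; in KO replicates 1 and 4 they correspond to 16.1 and 16.7 CPM. The fitted log2 fold change, KO over WT, was -2.17 (SE 0.77, edgeR adjusted p = 0.240, beside 0.0415% of all genes passing in microglia). KO replicate 3 had 13 microglia and was left out of the fit.

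The makeup of the microglia differed between genotypes: low-quality or activated cells made up 75.7 ± 16.3% (SD, n = 4) of them in KO and 56.1 ± 7.20% (n = 3) in WT mice. Without KO replicate 3, whose 13 microglia were all of this kind, the KO mean was 67.6%. Within the low-quality or activated cells alone, KO mice had 0 Siglece UMIs among 214576 and WT mice 8 among 391107 (20.5 CPM, exact Poisson 95% interval 8.83 to 40.3). The same interval for the count of 0 in KO reaches 17.2 CPM. Within the other microglia, KO mice had 3 UMIs (12.5 CPM, interval 2.58 to 36.5) and WT mice 38 (39.8 CPM, interval 28.2 to 54.7). These intervals cover counting error only, and the pooled KO value lay below the pooled WT value within both types.

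Measured as a share of microglia with a Siglece UMI at 1500 UMIs per cell, KO mice stood at 1.72%, 2.77%, 0% and 0% and WT mice at 3.77%, 5.78% and 3.01%, without overlap. The means were 1.12 ± 1.36% (n = 4) and 4.19 ± 1.43% (n = 3), and the two-sided exact permutation p was 0.0571, where 35 divisions of the mice allow no less than 0.0286. Without thinning the shares were 2.02% and 12.0% (exact permutation p = 0.0286). At 3000 UMIs they were 5.31 ± 8.43% (SD, n = 4) and 9.93 ± 3.03% (n = 3, exact permutation p = 0.457). That depth leaves out most low-quality or activated microglia, so it covers a different set of cells. As a background, the T cell types stood at 0.195% to 1.02% at 1500 UMIs and at up to 3.14% without thinning. The KO mean lay just above the upper end of that range with thinning and inside it without. The 3.14% came from proliferating CD4+ T cells and Tregs, at a median of 9328.5 UMIs per cell. Low-quality or activated microglia had 2222, so the shares without thinning compare unlike depths. B cells stood at 0.235% with thinning and 0.714% without, at a median of 7302 UMIs. Sall1, the locus of the driver, stood at 129.97, 144.9 and 90.1 CPM in WT microglia and 48.2, 39.1, 108.4 and 66.6 in KO microglia, from 2 to 12 UMIs in each KO library.

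**Figure D3:**
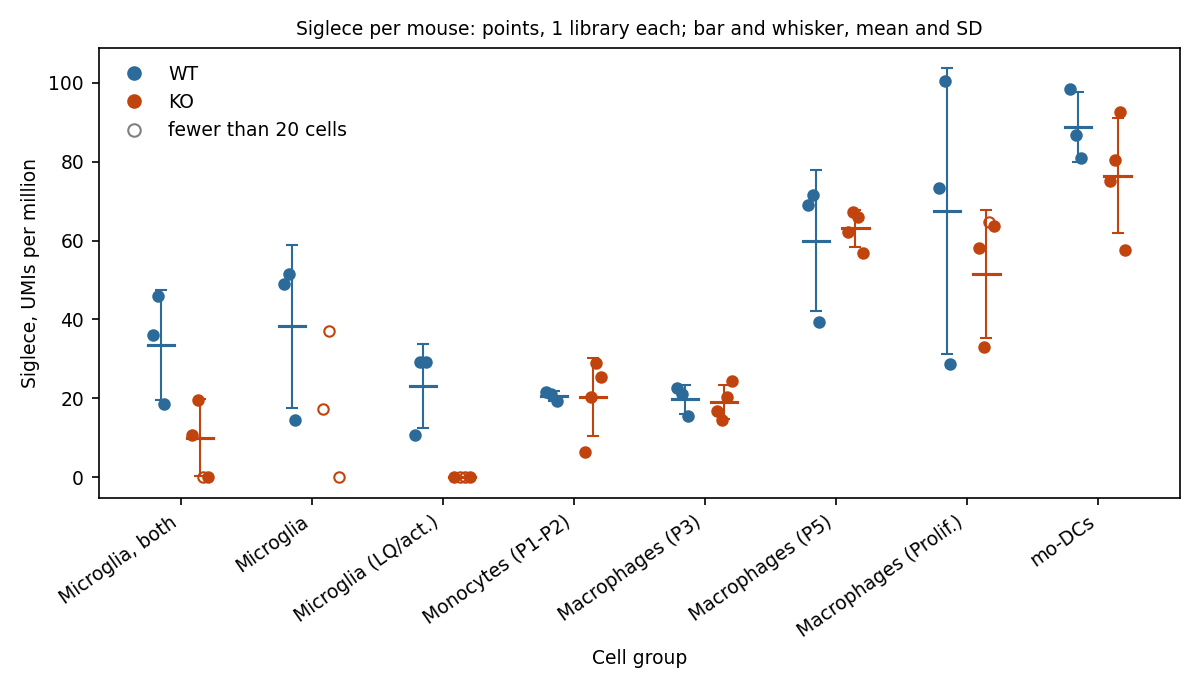
Siglece in CPM per mouse for microglia (joined, then by type) and the monocyte-derived types on the x axis; each point is 1 library, open where it holds fewer than 20 cells, and the bar and whisker are the mean and SD of the filled points. WT and KO overlap in every monocyte-derived type, while the joined microglia show 0 to 19.6 CPM in KO against 18.6 to 45.9 in WT.

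Monocyte-derived cells of both genotypes carried Siglece. In P5 macrophages it stood at 69.0, 71.5 and 39.4 CPM in WT replicates 1 to 3 and at 62.2, 67.3, 66.1 and 56.8 in KO replicates 1 to 4. In mo-DCs it stood at 98.3, 86.8 and 80.9 against 75.0, 80.5, 92.5 and 57.6. The groups overlapped in both, and the log2 fold changes were 0.096 (SE 0.19) and -0.27 (SE 0.16). For the joined monocytes and macrophages the log2 fold change was 0.037 (SE 0.21, edgeR adjusted p = 0.988). It was -0.010 without KO replicate 1 and -0.19 without WT replicate 3, so its sign has no fixed direction. The difference between the genotype effects in microglia and in monocyte-derived cells was -2.41 on the log2 scale (SE 0.74, edgeR adjusted p = 0.101).

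Cd33 had higher fitted levels in KO mice in the fitted cell types where it was abundant, though no single comparison passed. In microglia it stood at 205.8, 193.2 and 119.3 CPM in WT replicates 1 to 3 and at 278.6, 567.7, 650.3 and 238.8 in KO replicates 1 to 4, without overlap (8.83% of genes in microglia had every fitted KO library above every WT library). The log2 fold change without KO replicate 3 was 0.89 (SE 0.28, edgeR adjusted p = 0.183). Low-quality or activated microglia were the larger share in KO. In WT mice alone (n = 3) they had 216 ± 69.8 CPM Cd33, against 153 ± 50.9 in the other microglia. These ranges overlapped. Within the low-quality or activated cells the fitted libraries of the genotypes overlapped. KO replicates 1 and 4 had 458.2 and 245.5 CPM there, against 296.2, 175.1 and 175.4 in WT mice. The log2 fold change there was 0.62 (SE 0.35). Pooled by genotype, these cells had 452 CPM in KO (exact Poisson interval 367 to 551) and 233 in WT mice (187 to 286). The intervals lay apart but cover counting error only. The part of the makeup in the fitted change was not tested.

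In monocytes Cd33 stood at 72.6, 62.4 and 76.5 CPM in WT mice and at 87.8, 126.9, 175.6 and 115.1 in KO mice, again without overlap (4.56% of genes in monocytes). The log2 fold change was 0.81 (SE 0.21, unadjusted p = 0.00150, edgeR adjusted p = 0.534). In P5 macrophages it was 0.48 (SE 0.20), in mo-DCs 0.53 (SE 0.22), in P3 macrophages 0.52 (SE 0.23) and in pDCs 0.33 (SE 0.25), and all 4 had an edgeR adjusted p above the threshold with overlapping libraries. Over the 7 fitted cell types with a mean of at least 10 CPM, the change was above 0 in 7, from 0.10 to 0.81, in the same mice; in pDCs it was 0.033 without KO replicate 1. Good-quality microglia, with too few cells per KO library, were not fitted; their pooled values were 212 CPM in KO (exact Poisson 95% interval 158 to 279) and 155 in WT (131 to 182). KO replicate 3 had the highest Cd33 in monocytes, P3 and P5 macrophages.

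**Figure D4:**
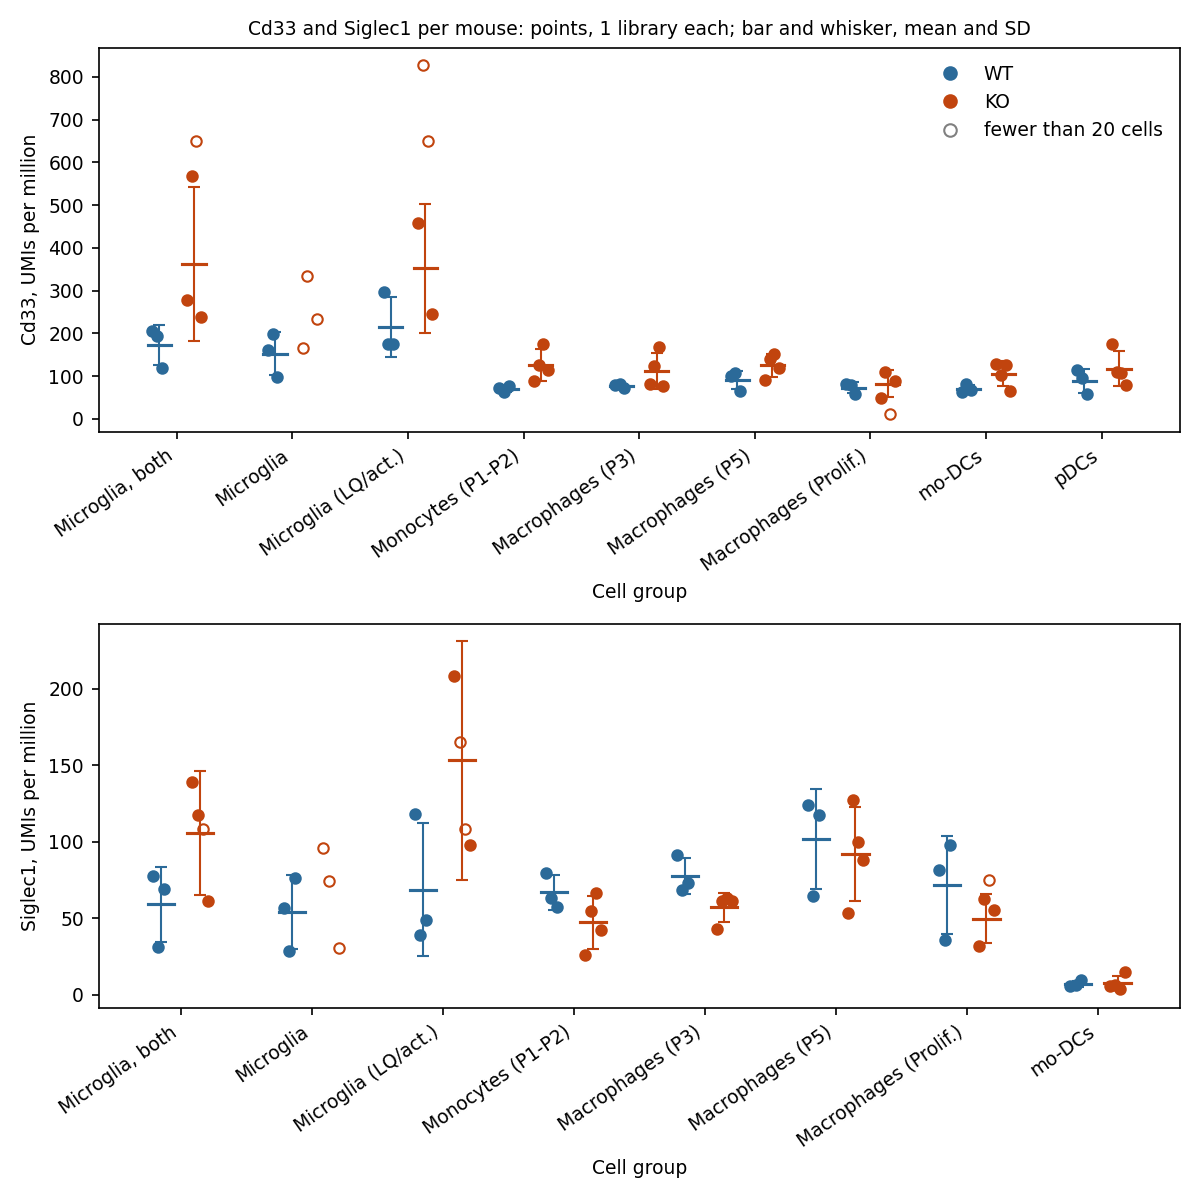
Cd33 (top) and Siglec1 (bottom) in CPM per mouse for the myeloid groups on the x axis; each point is 1 library, open where it holds fewer than 20 cells, and the bar and whisker are the mean and SD of the filled points. For Cd33 the KO points lie above the WT points in joined microglia and in monocytes; for Siglec1 they lie below the WT points in P3 macrophages, at 43.3 to 63.6 against 68.8 to 91.2.

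Siglec1 had fitted changes of opposite sign in microglia and in P3 macrophages, neither past the threshold. In P3 macrophages it stood at 91.2, 68.8 and 73.2 CPM in WT mice and at 43.3, 61.1, 63.6 and 61.3 in KO mice, without overlap (3.34% of genes in P3 macrophages had every KO library below every WT library), with a log2 fold change of -0.42 (SE 0.17, edgeR adjusted p = 0.890). In monocytes the log2 fold change was -0.50 (SE 0.23), with overlap. In microglia the levels were 77.6, 31.4 and 68.9 in WT mice and 139.3, 117.4, 108.4 and 61.1 in KO mice, with a log2 fold change of 0.77 (SE 0.37, edgeR adjusted p = 0.412). Low-quality or activated microglia were the larger share in KO. In WT mice alone they stood at 68.7 ± 43.4 CPM Siglec1 (SD, n = 3), against 54.1 ± 23.9 in the other microglia (n = 3), with overlap. Within the low-quality or activated cells the genotypes overlapped. KO replicates 1 and 4 had 208.3 and 98.2 CPM there, against 118.5, 38.9 and 48.7 in WT mice. The part of the makeup in the fitted change was not tested. The difference between microglia and all monocyte-derived cells was 1.07 (SE 0.35, edgeR adjusted p = 0.142), but it was 0.36 (edgeR adjusted p = 0.878) without KO replicate 1 and 1.54 (edgeR adjusted p = 0.0209) without KO replicate 4.

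Siglecg was low in monocytes, at 2.41, 0 and 0.987 CPM in WT mice and 3.25, 4.70, 6.91 and 5.72 in KO mice, without overlap. In monocytes 4.56% of genes had every KO library above every WT library. The Siglecg values there come from 26 UMIs over all 7 libraries. The log2 fold change was 1.79 (SE 0.73, edgeR adjusted p = 0.696), and 2.84 without WT replicate 1. In the types where Siglecg was abundant the libraries of the genotypes overlapped, and the log2 fold change was -0.040 in mo-DCs (SE 0.23), 0.21 in cDC2 (SE 0.34), -0.15 in cDC1 (SE 0.21), 0.56 in pDCs (SE 0.32) and -0.19 in B cells (SE 0.80). Cd22 in P3 macrophages stood at 7.01, 13.8 and 6.04 CPM in WT and 3.17, 4.51, 1.77 and 3.75 in KO mice, without overlap (log2 fold change -1.34, SE 0.44, edgeR adjusted p = 0.868). In P3 macrophages 3.34% of genes had every KO library below every WT library. In P5 macrophages, where Cd22 was higher, the libraries of the genotypes overlapped. In low-quality or activated microglia the fitted change had the opposite sign, at 41.7 and 49.1 CPM in KO replicates 1 and 4 against 26.9, 9.73 and 0 in WT mice, without overlap (13.1% of genes there had every KO library above every WT library; log2 fold change 1.55, SE 1.17, edgeR adjusted p = 0.875). These values come from 3 and 4 UMIs in KO and 5, 1 and 0 in WT mice. In all microglia the log2 fold change was 0.93 (SE 0.56, edgeR adjusted p = 0.520).

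Siglech had overlapping levels in the genotypes in pDCs and microglia. In pDCs it stood at 2158, 2340 and 2157 CPM in WT mice and at 2405, 2158, 3132 and 2427 in KO mice, with a log2 fold change of 0.18 (SE 0.12, edgeR adjusted p = 0.923). A 95% interval from this SE and a normal quantile ran from -0.052 to 0.42. It is narrower than an interval that allows for the small number of mice. In microglia the log2 fold change was 0.070 (SE 0.26). Siglecf in microglia rested on 1 or 2 UMIs in each KO library and 14, 9 and 6 in WT replicates 1 to 3, and its log2 fold change of -0.81 had an SE of 0.71.

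**Figure D5:**
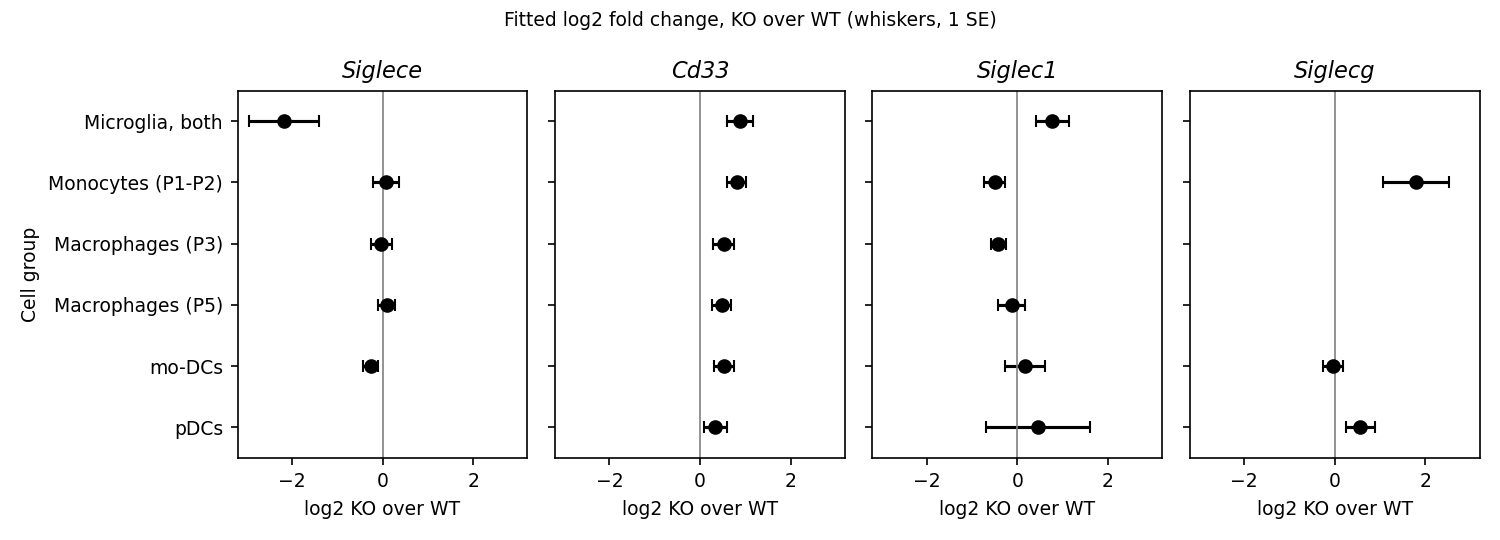
Fitted log2 fold change, KO over WT, of Siglece, Cd33, Siglec1 and Siglecg (panels) in 6 cell groups (y axis), with whiskers of 1 SE; values are drawn where the gene had a mean of at least 3 CPM. Cd33 lies right of 0 in all 6 groups, and Siglece lies far left of 0 in microglia (-2.17) and within 0.3 of 0 elsewhere.

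The genes that act with the receptors were counted in microglia and in monocyte-derived cells. In microglia 2 of all 4823 genes passed (0.0415%, and 6 genes in DESeq2). In monocyte-derived cells 0 of 11944 did (20 in DESeq2), so a count of 0 says little about a list. Of 11 signalling partners and adapters, 9 could be tested in microglia and 11 in monocyte-derived cells, and 0 passed in either direction, with median log2 fold changes of -0.058 and 0.013 beside -0.0019 and -0.00063 over all genes. Of 24 genes that make, attach or remove sialic acid, 7 and 17 could be tested and 0 passed, with medians of -0.23 and -0.020. An unadjusted p under 0.05 was reached by 0 of these 16 genes in microglia, where 11.9% of all genes reached it, and by 2 of 28 in monocyte-derived cells, where 5.68% did: Ptpn6, given next, and the polysialic acid synthase gene St8sia4 (log2 fold change 0.54, SE 0.13, edgeR adjusted p = 0.827), named after its value was seen. The protein ligands Cd24a and Spn were tested only in monocyte-derived cells, and 0 of 2 passed.

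Among single partners, Ptpn6, the phosphatase recruited by inhibitory Siglecs, stood at 203 ± 19.5 CPM in KO (n = 4) and 272 ± 21.3 in WT (n = 3) monocyte-derived cells, without overlap, as 3.47% of genes there had every KO library below every WT library (log2 fold change -0.42, SE 0.13, edgeR adjusted p = 0.827). Ptpn11 stood at 36.7 and 37.2 CPM there. Tyrobp, the adapter of Siglec-H, was at 1805 ± 192 CPM in KO (n = 3) and 2379 ± 151 in WT (n = 3) microglia, without overlap. The log2 fold change was -0.41 (edgeR adjusted p = 0.468). In microglia 9.93% of genes had every fitted KO library below every WT library. By cell type Tyrobp was 369 CPM in low-quality or activated microglia, the larger share in KO, and 3192 in the others. The part of the makeup in its fitted change was not tested. Cmas, which activates sialic acid, stood at 56.1 and 64.9 CPM in microglia, and the sialyltransferase gene St6gal1 at 24.6 and 21.6. St3gal4, another sialyltransferase gene, had 1, 0, 1 and 0 UMIs in KO and 9, 3 and 5 in WT microglia; 3 UMIs correspond to 16.1 to 81.3 CPM in the KO libraries, above the WT mean of 12.2, so no difference can be read at this depth.

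Of the family members outside the list, Siglec15 had no UMI in microglia. Mag had 8, 2, 2 and 6 UMIs in KO microglia (42.9, 39.1, 54.2 and 33.3 CPM) and 10, 9 and 5 in WT microglia (18.1, 21.7 and 13.3 CPM), without overlap; 8.83% of the genes tested in microglia had every KO library above every WT library. The 2 UMIs of KO replicates 2 and 3 are below the 58.7 and 81.3 CPM that 3 UMIs correspond to in them, and Mag fell below the filter and was not tested.

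St8sia6 was among the genes removed by the filter on low counts and is given here after its values were seen. This gene, a sialyltransferase that makes disialic acid structures bound by Siglec-E, had 8, 2, 2 and 5 UMIs in KO microglia (replicates 1 to 4) and 0, 1 and 0 in WT microglia. These are 42.9, 39.1, 54.2 and 27.8 CPM against 0, 2.42 and 0, where 3 UMIs correspond to 5.42 to 7.95 CPM in the WT libraries and to 16.1, 58.7, 81.3 and 16.7 CPM in the KO libraries. The KO values of replicates 2 and 3 are thus below that level, and those of replicates 1 and 4 above it. With no filter it was the only gene of the lists that passed, among 41 of 16892 genes (0.243%), with a log2 fold change of 4.86 (SE 0.96, edgeR adjusted p = 7.1e-04). In monocyte-derived cells it stayed between 0 and 0.817 CPM in both genotypes, and B cells had 49.5 CPM on average.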

How the data were processed

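The authors deposited 1 matrix of expected counts, that is unscaled UMIs of each gene in each cell (7.51% of non-zero values were not whole, among Siglec genes only 5 Siglecg values). The authors' cell table, as deposited, gives the library, a cell type name, the counts of detected genes, and the percent of mitochondrial and ribosomal UMIs, which they computed per cell. Per the submitters' processing notes, STARsolo, STAR 2.7.10a, FastQC 0.11.5 and mm10 were used; cell filters, doublet handling and the naming of cell types are not given in the sources used here, and no cell was removed. UMIs were summed per library and cell type, rounded, and libraries with fewer than 20 cells of a type were left out. Sums were fitted per cell type in edgeR 4.0.16 (TMM, filterByExpr, robust quasi-likelihood; Siglec genes with at least 10 UMIs were kept), with Benjamini-Hochberg adjustment over all genes tested. DESeq2 1.42.0 was an alternative. The difference between cell classes was fitted with 1 term per mouse. Shares with a UMI are expected values after thinning each cell to 1500 UMIs. Positions are from GENCODE M21.

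Mice are replicates; each library is 1 mouse. Genes named are the 7 members, for each the 5 genes of most similar profile (with at least 50 CPM in 1 type; 1 of them is not reported here), Sall1, fixed members of the signalling and ligand lists or those that passed, and cell type markers; St8sia4, St8sia6 and Jchain were named after their values were seen. The members and lists were chosen with earlier results of these data known. On simulated microglia (4518 genes) the fit recovered 24% of genes changed by 1 on the log2 scale and 85% of those changed by 2. On simulated monocyte-derived cells (11767 genes) it recovered 41% and 85%. False calls were 9 of 118 and 9 of 135. Each simulation held 100 changed genes of each size, whereas 2 of 4823 genes passed in the real microglia. Recovery may be lower where so few genes change. Replicate numbers were not taken to pair KO with WT mice. Same-number correlations of deviations were 0.13, 0.06 and -0.21 in monocyte-derived cells. Pairs of unlike number ran from -0.35 to 0.26 there, so these values cannot decide whether mice of the same number shared a batch.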

Additional observations from a re-analysis of the deposited data

Results flagged for a closer look

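In 23 groups of 4 KO mice checked for a library far from the other 3, 2 had one, and chance alone gives about 1 in 20. KO replicate 1 was lowest for Siglec1 in P3 macrophages, at 43.3 CPM, where the other KO mice had 61.1 to 63.6. KO replicate 1 was also lowest for Siglecg in pDCs, at 26.7 CPM, where the other KO mice had 46.0 to 49.8. It is the library with the fewest cells, 1410, and the highest median depth, 9554 UMIs per cell; the part of either in the low values was not tested.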

How the results depend on the processing

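No Siglec gene passed the adjusted threshold between KO and WT in any fitted cell type or class under the alternatives run: DESeq2, no filter on low counts, at least 10 or 50 cells per library, values that are not whole set to 0, the replicate number as a block, or any mouse left out. The lowest adjusted p over 384 values of 31 named fold changes was 0.0682, for Cd33 in monocytes, and 20 of the 31 kept their direction throughout. Siglece in microglia kept its direction, from -1.43 to -2.85 with a mouse left out and -1.55 with the replicate block. In low-quality or activated microglia alone both fitted KO libraries had 0 UMIs, so the fitted value there gives no size. The good-quality microglia alone, and microglia with at least 50 cells per library, could not be fitted. In monocyte-derived cells it was 0.096 with the replicate block, and ran from -0.19 to 0.21 with a mouse left out. The difference between these classes ran from -2.99 to -1.66.

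The replicate block turned Siglech in microglia to -0.33 (-0.050 with no filter), Siglece in monocytes to -0.11, Siglecg in mo-DCs to 0.13, Siglecg in B cells to 1.14 and Cd22 in B cells to 1.62 (0.022 in DESeq2), and it made or ended no call; the cause was not tested. With a mouse left out, these also crossed 0: Siglech in microglia (-0.20 to 0.24), Siglece in monocytes (-0.040 to 0.24), Siglece in P3 macrophages (-0.21 to 0.11), Siglece in P5 macrophages (-0.11 to 0.26), Siglec1 in P5 macrophages (-0.36 to 0.078), Siglece in proliferating macrophages (-0.65 to 0.052), Siglecg in mo-DCs (-0.27 to 0.13), Siglecg in cDC1 (-0.30 to 0.14), Siglecg in cDC2 (-0.089 to 0.59), Siglecg in B cells (-0.70 to 0.58), Cd22 in B cells (-0.92 to 0.64). For microglia with at least 1 Siglece UMI, the difference in share was -9.97 points without thinning, and ran from -3.65 to -2.27 with a mouse left out.

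Averaging mattered for where a gene was highest. Pooling UMIs over libraries, in place of the mean over libraries, kept the leading cell type for 4 of 7 genes; it moved Siglecg to mo-DCs and Cd22 and Siglecf to low-quality or activated microglia. With libraries of at least 50 cells, Siglec1 was highest in P5 macrophages (96.4 CPM). Good-quality microglia had at most 48 cells in a library and dropped out, so Siglecf could not stay highest there. It was then highest in low-quality or activated microglia, where only WT replicates 1 and 3 (69 and 57 cells) remained. With libraries of at least 10 cells, Siglecf was again highest in low-quality or activated microglia, its level in good-quality microglia was 14.9 CPM and Cd33 in the low-quality or activated ones 404.0. With no filter 1 list gene, St8sia6, passed in microglia. The KO mice had 113 microglia, which limits every value in them.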
